A study of Mus musculus with 6 samples.

Results

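The comparison set the Pax7-negative fraction of induced myogenic progenitor cells (iMPCs) against mouse embryonic fibroblasts (MEFs). Each side was 1 RNA-seq library out of 6 in the series, and 17116 of the 38924 genes in the files passed a filter on low counts. iMPCs are muscle progenitors obtained by reprogramming fibroblasts, and the fraction compared here consisted of iMPCs without signal from Pax7-nGFP, a nuclear green fluorescent reporter of Pax7. The other 4 libraries came from reporter-positive iMPCs, from activated satellite cells (ASC) and from quiescent satellite cells (QSC) of 2 mice, and they served for scaling and as points of orientation. According to the growth protocol, fibroblasts of embryos or of tail tips were reprogrammed with doxycycline in a medium that held serum, serum replacement and basic FGF. Expansion of iMPCs then took place in the absence of doxycycline, with 3 agents in the medium. These were forskolin, an activator of cAMP synthesis (5 µM), an inhibitor of GSK3, which turns on canonical Wnt signalling (3 µM), and RepSox, which blocks signalling by TGF-beta receptors (5 µM). A single protocol text accompanies every library. It does not give the medium of the MEFs, the kind of fibroblast that gave rise to the sequenced iMPCs, what doxycycline induced, whether MEFs carried the reporter or were sorted, or the strain and age of the animals. Differences between the libraries that come from cell identity, from sorting, from the culture agents and from the starting fibroblasts therefore cannot be told apart.

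Skeletal muscle develops from progenitors that express Pax7 or Pax3 and then the basic helix-loop-helix factors Myf5, Myod1, Myog and Myf6. Committed myoblasts leave the cell cycle, fuse, and assemble sarcomeres from myosin-based thick filaments and actin-based thin filaments anchored at Z-discs. Embryonic fibroblasts are mesenchymal cells that secrete collagens, fibronectin and elastic-fibre proteins and, in culture, often carry contractile fibres of the smooth muscle type under the influence of TGF-beta.

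The files held 24446555 counts for the Pax7-negative iMPCs and 23273130 for the MEFs, spread over 19545 and 18920 genes with at least 1 count. Mitochondrially encoded genes took 0.516% of the iMPC counts and 0.447% of the MEF counts. A gene was counted as different when it was at least 4-fold apart and had at least 5 CPM (counts scaled to library size) in the higher library. With 1 library a side there is no replicate spread and no test, so every statement compares these libraries only, and the 95% intervals on ratios cover counting error only. By this rule 810 genes (4.73% of the 17116) were higher in Pax7-negative iMPCs and 407 (2.38%) were lower, 7.11% in either direction. These shares are the background for the counts in gene lists, but the denominators differ. List members need at least 1 CPM in either library, whereas the 17116 include genes below that. A gene under 5 CPM in both libraries cannot be counted as different, so the shares over all genes are a low background. Of the 11442 genes with at least 5 CPM in the higher library, 8721 (76.2%) lay within 2-fold, and the median log2 difference over all genes was 0.0059. The differences on the iMPC side were the steeper ones. At least 64-fold separated 158 of the higher genes and 11 of the lower genes, and the median log2 difference was 3.78 among the higher and -2.80 among the lower genes. The higher genes took 8.15% of the counts in Pax7-negative iMPCs and 0.622% in MEFs, whereas the lower genes took 1.37% in Pax7-negative iMPCs and 8.80% in MEFs. At the edge of the rule, the growth factor gene Pdgfc just qualified as lower with 19.4 CPM in Pax7-negative iMPCs and 78.0 CPM in MEFs, whereas Mpped2, with 2.13 and 8.75 CPM in the same order, just missed 4-fold on the log2 scale with its prior count. At the level threshold, the calcium channel gene Cacna2d3 just qualified as lower with 0.169 CPM in Pax7-negative iMPCs and 5.008 CPM in MEFs. The neuropeptide gene Nts, with 4.998 CPM in Pax7-negative iMPCs and 0.112 CPM in MEFs, just missed it.

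**Figure D1:**
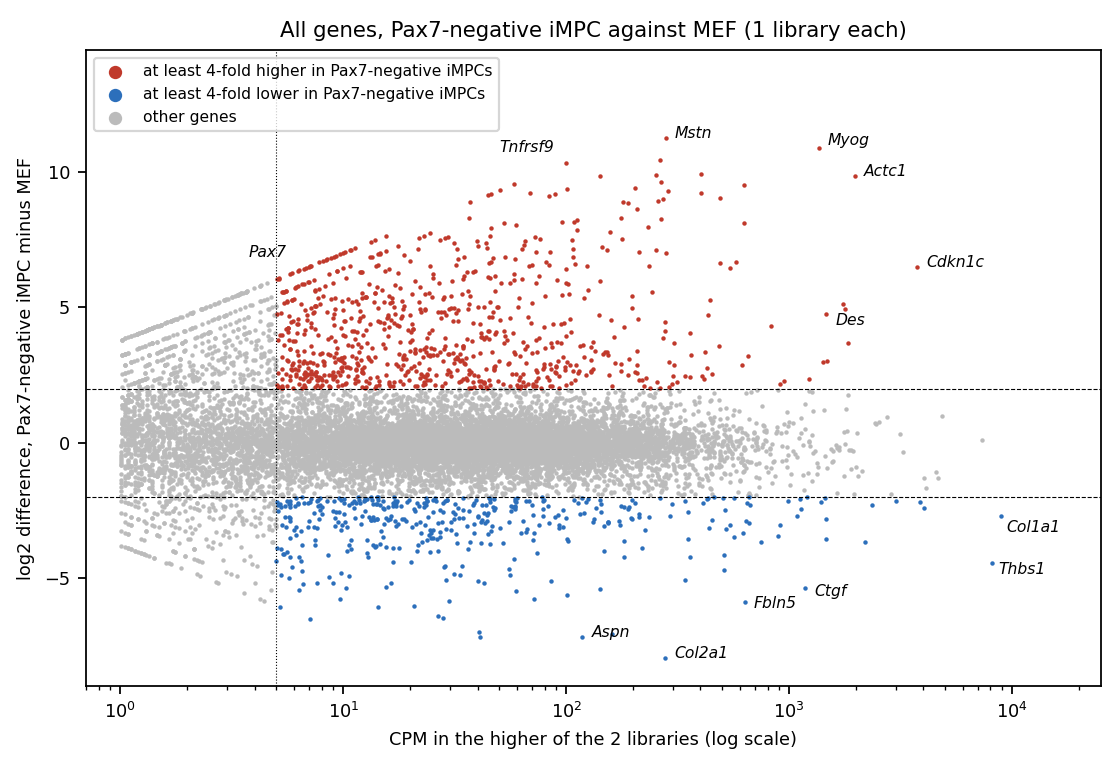
Every gene with at least 1 CPM in either library is 1 point, with the CPM of its higher library on a log scale across and the log2 difference, Pax7-negative iMPC minus MEF, upwards. Dashed lines mark 4-fold and the dotted line 5 CPM. The 810 red genes reach log2 differences above 10, for example Mstn and Myog, whereas the 407 blue genes end near -8 at Col2a1.

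The libraries were first described by cell type markers. These lists were chosen with earlier results of these data known, so they are no independent check of the labels. All 12 muscle markers were higher in the Pax7-negative iMPCs, with a summed level of 7548 CPM against 122.4 CPM in MEFs. Desmin (Des), the intermediate filament of muscle, stood at 1470 CPM in Pax7-negative iMPCs and 54.6 CPM in MEFs, a ratio of 26.9 (95% counting interval 25.6 to 28.4). Of the 16 fibroblast markers, 7 were lower and 2 higher, and their summed level was 10100 CPM in Pax7-negative iMPCs, 3186 CPM in Pax7-positive iMPCs and 22950 CPM in MEFs. Pdgfra, the platelet-derived growth factor receptor of mesenchymal cells, was at 105 CPM in Pax7-negative iMPCs, 2.22 CPM in Pax7-positive iMPCs and 73.8 CPM in MEFs. Thy1, a surface glycoprotein of fibroblasts, was at 61.5 CPM in Pax7-negative iMPCs, 10.1 CPM in Pax7-positive iMPCs and 33.9 CPM in MEFs. The Pax7-negative fraction thus carried muscle and fibroblast markers side by side, and in a bulk library fewer cells of a type and less RNA per cell cannot be told apart. Of 10 measured endothelial markers none was higher and 1 lower by the rule. Without the rule 7 were above 0 and 3 below, with a median log2 difference of 2.17. The list summed to 54.4 CPM in Pax7-negative iMPCs and 68.95 CPM in MEFs, of which Flt1 held 12.7 and 42.2 CPM in the same order. The gene lower by the rule was the growth factor receptor Kdr, at 2.77 CPM in Pax7-negative iMPCs and 15.1 CPM in MEFs. Cdh5, the adhesion protein of endothelial junctions, was at 3.04 CPM in Pax7-negative iMPCs and 0 counts in MEFs. Of 13 immune markers, 5 reached 1 CPM in either library, and the pan-leukocyte gene Ptprc had 1 count in each. Of those 5, 1 was higher and 1 lower. Laptm5, a lysosomal membrane protein of blood cells, was the higher one with 36.3 CPM in Pax7-negative iMPCs and 0.673 CPM in MEFs. Lyz2 was the lower one with 1.49 CPM in Pax7-negative iMPCs and 8.97 CPM in MEFs. Schwann and neural crest markers summed to 56.7 CPM in Pax7-negative iMPCs and 8.82 CPM in MEFs. That sum came mainly from Erbb3, S100b and Ngfr, whereas Sox10, the defining factor of that lineage, had 1 count in Pax7-negative iMPCs and 8 in MEFs. Neuronal markers, with 3 of 10 measured higher and 1 lower, summed to 172.5 CPM in Pax7-negative iMPCs and 93.2 CPM in MEFs. Of 4 measured epithelial markers 1 was higher and none lower, and 3 were above 0 on the log2 scale. That list summed to 70.2 CPM in Pax7-negative iMPCs and 97.8 CPM in MEFs, of which Krt19 held 33.4 and 84.5 CPM in the same order. Pluripotency markers summed to 5.44 CPM in Pax7-negative iMPCs and 0.972 CPM in MEFs, and erythroid markers to 2.09 and 2.95 CPM in the same order. Pericyte and smooth muscle markers, with 4 of 12 higher and 4 lower, summed to 3120 CPM in Pax7-negative iMPCs and 5995 CPM in MEFs, and Des is on that list as well. Adipocyte markers, with 1 of 4 measured higher, summed to 472.8 CPM in Pax7-negative iMPCs and 28.85 CPM in MEFs, of which lipoprotein lipase (Lpl) held 443 and 11.5 CPM in the same order, while Adipoq and Plin1 did not pass the filter on low counts. Tendon markers, with 2 of 7 lower and none higher, summed to 365.7 CPM in Pax7-negative iMPCs and 422.6 CPM in MEFs, of which the immediate early gene Egr1 held 325 and 301 CPM in the same order. The part of such cells in the values that follow was not tested. The X-inactivation transcript Xist was at 24.7 CPM in Pax7-negative iMPCs and 41.9 CPM in MEFs, and the Y-linked Ddx3y had 4 and 3 counts in the same order. By these genes the libraries did not differ as male from female would.

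Transcription factors of the myogenic programme separated the libraries. Of 28 measured, 14 were at least 4-fold higher in Pax7-negative iMPCs and none was lower, with a median log2 difference of 3.16. Pax7 itself was still counted in the reporter-negative fraction. It had 185 counts (6.25 CPM) in Pax7-negative iMPCs and 37.8 CPM in Pax7-positive iMPCs, against 0 counts in MEFs, which makes it at least 55.7-fold higher in the Pax7-negative iMPCs than a floor of 3 counts in the MEF library. Myod1, the factor that commits cells to the muscle lineage, stood at 404 CPM in Pax7-negative iMPCs and 0.598 CPM in MEFs (ratio 676, 95% counting interval 416 to 1182). Gene counts do not separate a copy introduced for reprogramming from the gene of the cell. Myogenin (Myog), which drives differentiation, was at 1358 CPM in Pax7-negative iMPCs, 892 CPM in Pax7-positive iMPCs and 0.635 CPM in MEFs, a ratio between Pax7-negative iMPCs and MEFs of 2138 (1335 to 3670). On a length-normalized scale (RPKM, counts scaled to gene length and to library size), Myog at 1112 lay above Myod1 at 264, Myf6 at 3.61 and Myf5 at 0.609 in the Pax7-negative iMPCs, and none of the 4 exceeded 0.494 in MEFs. Myf5, the factor of early myoblasts, had 31 counts in Pax7-negative iMPCs and 1 in MEFs, and Pax3 had 6 and 5 in the same order, both short of the 5 CPM minimum. The cofactor Vgll2 was at 100 CPM in Pax7-negative iMPCs and at 2 counts in MEFs. Pitx3, a homeobox factor of differentiating muscle, was at 58.1 CPM in Pax7-negative iMPCs and 0 counts in MEFs, at least 518-fold higher. Mef2c, a partner of the helix-loop-helix factors, was at 163 CPM in Pax7-negative iMPCs and 10.8 CPM in MEFs. Mef2a, Mef2d and Six4 lay within 2-fold.

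Genes of the surface and niche of satellite cells were divided. Of 18 measured, 7 were higher and 2 lower. M-cadherin (Cdh15) was at 488 CPM in Pax7-negative iMPCs and 0.860 CPM in MEFs, and the FGF receptor Fgfr4 at 112 CPM in Pax7-negative iMPCs and 0.299 CPM in MEFs. The laminin receptor Itga7 and the tetraspanin Cd82 were higher as well, at 272 and 361 CPM in Pax7-negative iMPCs, against 18.5 and 21.8 CPM in MEFs. The lower ones were caveolin (Cav1) with 110 CPM in Pax7-negative iMPCs and 911 CPM in MEFs, and the HGF receptor Met with 10.9 CPM in Pax7-negative iMPCs and 57.5 CPM in MEFs. Among genes of myoblast fusion, 3 of 16 were higher by the rule and none lower, but the median log2 difference was -0.126. Without the rule, 7 members were above 0 and 9 below, the lowest at -3.19. Tmem8c (myomaker), the membrane protein that makes myoblasts fuse, had 253 CPM in Pax7-negative iMPCs and 5 counts (0.187 CPM) in MEFs. Gm7325 (myomixer), its small partner, had 50.3 CPM in Pax7-negative iMPCs and 0 counts in MEFs, at least 449-fold higher. The third was Mstn (myostatin), a secreted TGF-beta family member that limits muscle growth, with 279 CPM in Pax7-negative iMPCs and a single count in MEFs (ratio 7462, 1339 to 294767). Cd9, Cd81 and Ehd2, also on that list, lay within 2-fold.

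Promoter sequences were read for some of the muscle genes, to show the motifs through which the factors above are known to act. Muscle helix-loop-helix factors bind E-boxes, of which CAGCTG is a form enriched at muscle genes, and serum response factor binds CArG boxes at actin genes. The 4 windows below are shown because each holds such a motif, in capitals, within 250 bases before the annotated start (RefSeq, GRCm38.p6). They belong to acetylcholine receptor subunits Chrng (chr1:87205561-87205810 on the plus strand) and Chrna1 (chr2:73580339-73580588 on the minus strand), to the fast myosin light chain Mylpf (chr7:127211358-127211607 on the plus strand) and to cardiac alpha-actin Actc1 (chr2:114052876-114053125 on the minus strand). Capitals mark CAGCTG in the first 3 and the CArG box in Actc1.
Chrng: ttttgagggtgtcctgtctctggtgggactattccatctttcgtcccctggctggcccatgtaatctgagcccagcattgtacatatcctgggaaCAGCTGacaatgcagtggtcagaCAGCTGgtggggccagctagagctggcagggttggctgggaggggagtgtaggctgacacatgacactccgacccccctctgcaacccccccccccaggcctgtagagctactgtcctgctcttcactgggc
Chrna1: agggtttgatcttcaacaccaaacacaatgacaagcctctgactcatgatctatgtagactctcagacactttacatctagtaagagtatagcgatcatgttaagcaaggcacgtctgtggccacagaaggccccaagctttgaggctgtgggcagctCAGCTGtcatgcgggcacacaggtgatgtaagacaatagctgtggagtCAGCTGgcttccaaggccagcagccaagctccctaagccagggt
Mylpf: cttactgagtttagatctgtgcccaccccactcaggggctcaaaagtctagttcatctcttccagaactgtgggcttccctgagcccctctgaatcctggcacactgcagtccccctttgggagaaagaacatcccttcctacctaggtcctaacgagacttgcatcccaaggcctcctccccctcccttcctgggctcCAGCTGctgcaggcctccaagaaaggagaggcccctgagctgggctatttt
Actc1: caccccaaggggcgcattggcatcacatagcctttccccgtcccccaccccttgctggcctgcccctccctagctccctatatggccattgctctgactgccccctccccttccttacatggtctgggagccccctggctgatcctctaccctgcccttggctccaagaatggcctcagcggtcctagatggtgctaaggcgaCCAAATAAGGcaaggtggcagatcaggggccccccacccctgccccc
The first base of CAGCTG lies at -155 and -132 relative to the start in Chrng, at -92 and -44 in Chrna1 and at -51 in Mylpf, and the CArG box of Actc1 begins at -47. CAGCTG is its own reverse complement, so a match counts for both strands, as does the CArG box in its strict form. CAGCTG occurred in 13% of all 32851 RefSeq windows of this length and in 12.8% of the 14750 windows of genes tested here. Among genes higher in Pax7-negative iMPCs it occurred in 21.4% of 734 windows (538 of the 810 genes were matched by symbol), and among genes lower there in 14% of 371 windows (283 of the 407 genes). A CArG box occurred in 2.72% of the windows of higher genes, in 3.23% of those of lower genes and in 1.2% of those of all genes tested. Some genes have several windows, so the shares count windows and not independent genes. They describe letters in these windows, not binding.

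Sarcomere genes were largely higher in Pax7-negative iMPCs. Among thick filament genes, 15 of 20 were higher and none lower, with a median log2 difference of 6.79 (6.53 with genes at 0 counts set to 3 counts). Their summed level was 2132 CPM in Pax7-negative iMPCs, 174.6 CPM in Pax7-positive iMPCs and 26.7 CPM in MEFs, and ASC reached 18540 CPM. Embryonic myosin heavy chain (Myh3) had 629 CPM in Pax7-negative iMPCs and 0.785 CPM in MEFs (ratio 801, 524 to 1294). Per length, the myosin heavy chains of the Pax7-negative iMPCs followed the order embryonic Myh3 (127 RPKM), perinatal Myh8 (35.7 RPKM), fast Myh1 (17.8 RPKM), slow Myh7 (2.97 RPKM), fast Myh4 (1.70 RPKM) and fast Myh2 (0.598 RPKM). In MEFs they ranged up to 1.45 RPKM, the value of Myh1, and Myh2 was level with 88 counts in Pax7-negative iMPCs and 79 in MEFs. Close sequence similarity among Myh1, Myh2 and Myh4, which lie next to each other, makes their separate counts uncertain. The light chain Myl1 was at 287 CPM in Pax7-negative iMPCs and 0.374 CPM in MEFs, and Mybph, a myosin-binding protein of the thick filament, at 267 and 0.262 CPM in the same order.

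Thin filament genes were higher in 14 of 18 cases and lower in 1, with a median log2 difference of 6.95. Cardiac alpha-actin (Actc1), the actin of embryonic skeletal muscle, had 1966 CPM in Pax7-negative iMPCs and 2.06 CPM in MEFs (ratio 956, 735 to 1270). Skeletal alpha-actin (Acta1) had 826 CPM in Pax7-negative iMPCs and 41.7 CPM in MEFs. The order of the actins differed between the libraries. In Pax7-negative iMPCs Actc1 at 1617 RPKM led Acta1 at 698 and the smooth muscle forms Acta2 at 511 and Actg2 at 90.2, whereas in MEFs Acta2 at 2608 RPKM led Actg2 at 246.85, Acta1 at 33.5 and Actc1 at 1.61. All 7 troponin subunits that passed the low-count filter with at least 1 CPM were higher. The calcium-binding subunits Tnnc2 and Tnnc1 were at 457 and 394 RPKM in Pax7-negative iMPCs and the inhibitory subunits Tnni1 and Tnni2 at 328 and 125 RPKM. The tropomyosin-binding subunits Tnnt1, Tnnt3 and Tnnt2 were at 242, 189 and 156 RPKM, and no troponin exceeded 2.32 RPKM in MEFs. Slow, fast and cardiac forms were thus present at once. Tropomyosins, which non-muscle cells also use, went another way. Tpm2 was at 923 CPM in Pax7-negative iMPCs and 718 CPM in MEFs, Tpm1 at 768 CPM in Pax7-negative iMPCs and 2862 CPM in MEFs, and Tpm3 was the lower gene of the list with 164 CPM in Pax7-negative iMPCs and 661 CPM in MEFs.

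At the Z-disc, 11 of 20 genes were higher and 2 lower. The crosslinkers Actn2 and Actn3 had 271 and 234 CPM in Pax7-negative iMPCs, against 0.448 and 2.47 CPM in MEFs. Titin (Ttn), the elastic filament, had 156 CPM in Pax7-negative iMPCs and 0.635 CPM in MEFs. Muscle creatine kinase (Ckm), a gene of mature fibres, had 12.1 CPM in Pax7-negative iMPCs and 2 counts in MEFs and passed the rule. Myoglobin (Mb) had 1.89 CPM in Pax7-negative iMPCs and 2 counts in MEFs, and the titin cap protein Tcap 2.16 CPM in Pax7-negative iMPCs and 3 counts in MEFs, and both stayed under the 5 CPM minimum.

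**Figure D2:**
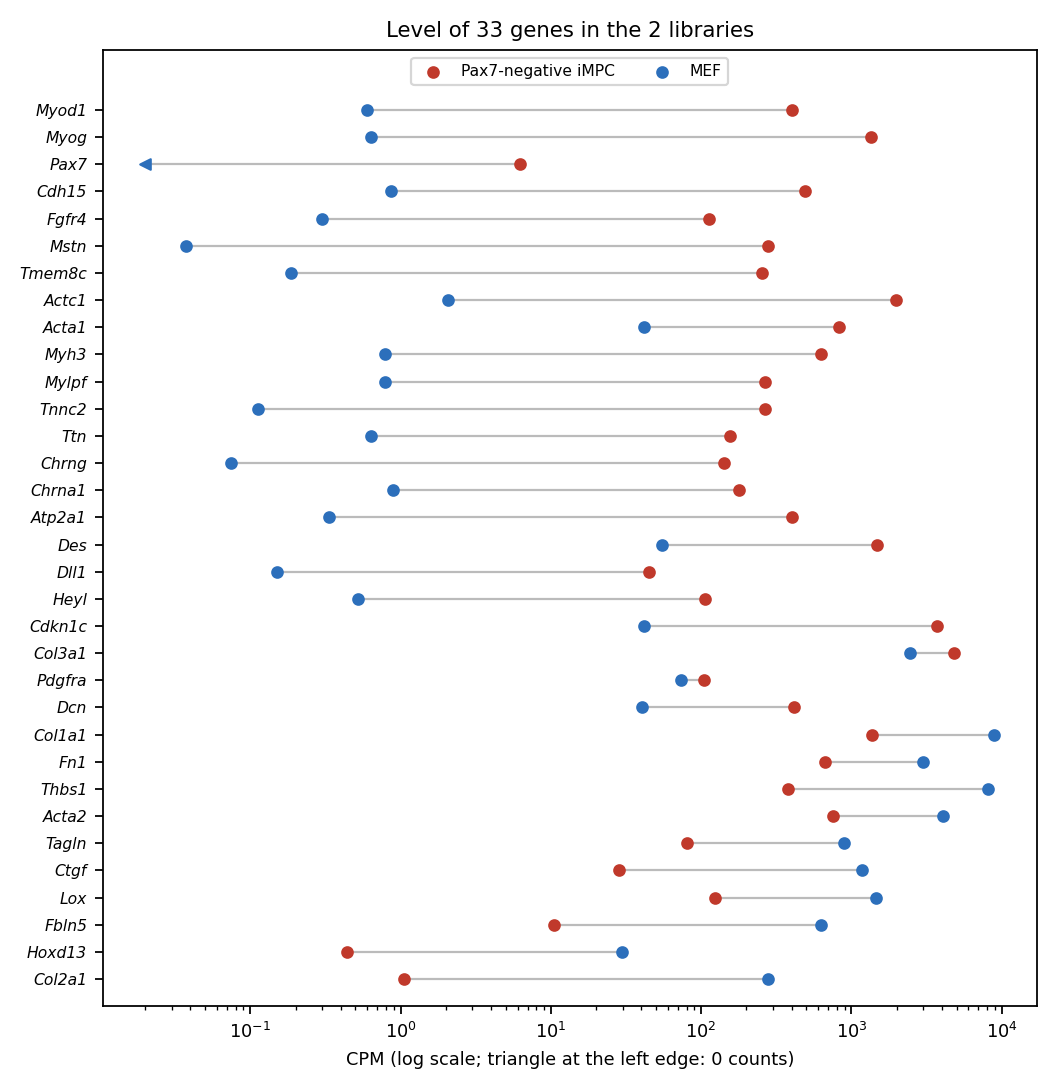
Level of 33 genes in Pax7-negative iMPCs (red) and MEFs (blue) in CPM on a log scale, with 1 library per colour and no error bars. A triangle at the left edge stands for 0 counts. Muscle genes such as Actc1 (1966 against 2.06 CPM) are far apart, Col3a1 and Pdgfra are close together, and matrix and TGF-beta target genes such as Ctgf (28.4 against 1177 CPM) lie the other way.

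Genes that couple nerve and calcium signals to contraction were on the same side. For excitation-contraction coupling, 16 of 23 were higher, none was lower and the median log2 difference was 4.49. The calcium pump of fast muscle (Atp2a1) had 401 CPM in Pax7-negative iMPCs and 0.336 CPM in MEFs, while the widely expressed pump Atp2a2 had 455 and 500 CPM in the same order. The calcium release channel Ryr1 was at 27.4 CPM in Pax7-negative iMPCs and 0.897 CPM in MEFs, and the voltage sensor Cacna1s at 12.1 CPM in Pax7-negative iMPCs and 2 counts in MEFs. Of 19 genes of the neuromuscular junction, 11 were higher and none lower, with a median of 4.05. Among acetylcholine receptor subunits the fetal gamma subunit Chrng reached 89.4 RPKM in Pax7-negative iMPCs, above Chrna1 at 49.0, Chrnd at 37.2 and Chrnb1 at 23.6, and the adult epsilon subunit Chrne had 0 counts in both libraries. Of these, only Chrnb1 exceeded 1 RPKM in MEFs, at 4.47. The receptor kinase Musk, which clusters the receptor, had 29.6 CPM in Pax7-negative iMPCs and 2 counts in MEFs. Parts of the dystrophin complex that other cells share, such as Dmd and Utrn, were not higher, with 8.68 and 22.3 CPM in Pax7-negative iMPCs and 16.3 and 67.3 CPM in MEFs.

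Many matrix genes were lower in Pax7-negative iMPCs. Among glycoproteins and proteoglycans, 14 of 33 were lower and 3 higher, with a median log2 difference of -1.63 and a summed level of 11030 CPM in Pax7-negative iMPCs against 25370 CPM in MEFs. Thrombospondin 1 (Thbs1), an activator of latent TGF-beta, had 376 CPM in Pax7-negative iMPCs and 8146 CPM in MEFs, 21.7-fold lower (21.3 to 22.1). Fibronectin (Fn1) had 667 CPM in Pax7-negative iMPCs and 3004 CPM in MEFs. Several elastic-fibre genes were lower, with Fbln5 at 10.5 CPM in Pax7-negative iMPCs and 631 CPM in MEFs, Fbln2 at 171 and 2195 CPM, Eln at 3.11 and 41.5 CPM and Mfap4 at 1.79 and 55.8 CPM in the same order, while Fbln1 of the same family was at 314 CPM in Pax7-negative iMPCs and 66.1 CPM in MEFs. The small proteoglycans did not share a direction. Asporin (Aspn) had 0.743 CPM in Pax7-negative iMPCs and 118 CPM in MEFs, whereas decorin (Dcn) had 417 CPM in Pax7-negative iMPCs, 12.3 CPM in Pax7-positive iMPCs and 40.6 CPM in MEFs.

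Collagen genes went both ways. Of 24 measured, 9 were lower and 5 higher, and the sum was 14160 CPM in Pax7-negative iMPCs, 5848 CPM in Pax7-positive iMPCs and 21810 CPM in MEFs. The chains of type I collagen were lower, with Col1a1 at 1377 CPM in Pax7-negative iMPCs and 8924 CPM in MEFs (6.48-fold, 6.41 to 6.55) and Col1a2 at 835 CPM in Pax7-negative iMPCs and 3864 CPM in MEFs. Type III collagen (Col3a1) was at 4836 CPM in Pax7-negative iMPCs and 2450 CPM in MEFs. Per length, Col3a1 at 1053 RPKM therefore led Col1a1 at 281 in Pax7-negative iMPCs, and Col1a1 at 1730 RPKM led Col3a1 at 506 in MEFs. Basement membrane collagens were higher for Col18a1, with 1782 CPM in Pax7-negative iMPCs and 58.2 CPM in MEFs, and for Col15a1, with 90.6 and 1.35 CPM in the same order. The type IV chains Col4a1 and Col4a2 lay within 2-fold, while Col4a5 and Col4a6 were lower. Cartilage collagens were lower by wide gaps. Col2a1 had 31 counts (1.05 CPM) in Pax7-negative iMPCs and 277 CPM in MEFs, 265-fold lower (186 to 390), and Col11a1 had 3.24 CPM in Pax7-negative iMPCs and 142 CPM in MEFs. Other cartilage and bone genes followed, with Acan, Comp and Ibsp at 2, 4 and 7 counts in Pax7-negative iMPCs and at 169, 384 and 555 counts in MEFs, although Sox9, the regulator of chondrocytes, was at 59.1 CPM in Pax7-negative iMPCs and 86.6 CPM in MEFs. The whole list of 13 cartilage and bone markers had 5 lower and 1 higher of 12 measured, and its sum of 2621 CPM in Pax7-negative iMPCs and 1946 CPM in MEFs was mostly Spp1, with 2519 and 1499.6 CPM in the same order. The lower tendon markers were Tnmd, at 1.01 CPM in Pax7-negative iMPCs and 31.4 CPM in MEFs, and Fmod, at 6.89 and 44.3 CPM in the same order.

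Genes that process matrix included 5 of 31 higher and 4 lower. The higher ones were the metalloproteinases Mmp9, Mmp3 and Mmp10, the surface protease Fap and the procollagen protease Adamts2. Mmp9, a gelatinase, had 629 CPM in Pax7-negative iMPCs, 167 CPM in Pax7-positive iMPCs and 2.20 CPM in MEFs. The lower ones included 3 of the lysyl oxidases, which crosslink collagen and elastin. Lox had 123 CPM in Pax7-negative iMPCs and 1461 CPM in MEFs. Serpinh1, the collagen chaperone, had 1855 CPM in Pax7-negative iMPCs and 4644 CPM in MEFs and did not reach 4-fold. Of 26 integrin and laminin genes, 5 were higher and 2 lower. The lower ones, Itga11 and Itgav, encode receptors for collagen and for fibronectin and latent TGF-beta, and Itga11 had 2.87 CPM in Pax7-negative iMPCs and 58.3 CPM in MEFs.

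Genes that respond to or belong to the pathways named in the growth protocol were then compared. Of 30 TGF-beta genes, ligands and receptors included, 13 were lower and 3 higher, with a median log2 difference of -1.35. The higher ones included the ligand Mstn, with 279 CPM in Pax7-negative iMPCs and 1 count in MEFs. Connective tissue growth factor (Ctgf) had 28.4 CPM in Pax7-negative iMPCs, 4.44 CPM in Pax7-positive iMPCs and 1177 CPM in MEFs, 41.4-fold lower in Pax7-negative iMPCs than in MEFs (38.7 to 44.4). Feedback inhibitors included Pmepa1, with 24.3 CPM in Pax7-negative iMPCs and 226 CPM in MEFs, and Smad7, with 23.3 and 72.6 CPM in the same order and short of 4-fold. Smooth muscle genes on the list were lower together. Acta2 had 751 CPM in Pax7-negative iMPCs and 4039 CPM in MEFs, Tagln 80.7 CPM in Pax7-negative iMPCs and 889 CPM in MEFs, and the actin-binding Cnn1 19.5 CPM in Pax7-negative iMPCs and 509 CPM in MEFs. Unlike the ligand Mstn, the ligands Tgfb3 and Inhba were lower, as were the storage proteins Ltbp1 and Ltbp2. Tgfb3 only just reached the rule, with a log2 difference of -2.02. The receptors Tgfbr1 and Tgfbr2 were at 139 and 232 CPM in Pax7-negative iMPCs and at 50.7 and 114 CPM in MEFs. The Id genes, classical targets of BMP, did not reach the rule, with Id1 at 97.1 CPM in Pax7-negative iMPCs and 90.4 CPM in MEFs. Among 24 BMP pathway genes 2 were higher and 6 lower, the lower ones including Bmp4 with 7.26 CPM in Pax7-negative iMPCs and 44.5 CPM in MEFs.

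For cAMP targets, 6 of 17 were higher and none lower, with a median of 1.32. The kinase Sik1 was at 111 CPM in Pax7-negative iMPCs and 15.1 CPM in MEFs, the phosphodiesterase Pde4b at 207 CPM in Pax7-negative iMPCs and 19.7 CPM in MEFs, and the EGF-like ligand Areg at 57.5 and 3.44 CPM in the same order. Nr4a2, Fosb and Dusp1 on that list were at 8.51, 1.15 and 81.8 CPM in Pax7-negative iMPCs and at 19.7, 2.20 and 111 CPM in MEFs. For Wnt, 4 of 31 were higher and 5 lower, with a median of -0.47. The nuclear effector Lef1 had 11.5 CPM in Pax7-negative iMPCs and 2.02 CPM in MEFs, but the feedback gene Axin2 had 1.76 CPM in Pax7-negative iMPCs and 3.03 CPM in MEFs. The secreted modulators were divided, with the inhibitors Sfrp4 and Frzb and the feedback hydrolase Notum higher, and the enhancers Rspo2 and Rspo3 and the matricellular Wisp1 and Wisp2 lower. Rspo2 had 0.777 CPM in Pax7-negative iMPCs and 29.0 CPM in MEFs. The part of the culture agents in these values was not tested.

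Notch signalling, which keeps satellite cells undifferentiated, gave 6 of 18 genes higher and none lower, with a median of 0.88. Among ligands, Dll1 was at 45.3 CPM in Pax7-negative iMPCs and 4 counts (0.149 CPM) in MEFs and Jag2 at 27.4 CPM in Pax7-negative iMPCs and 1.05 CPM in MEFs, whereas Jag1 was at 15.5 CPM in Pax7-negative iMPCs and 49.0 CPM in MEFs, short of 4-fold. Of the receptors Notch3 just reached the rule, with 92.4 CPM in Pax7-negative iMPCs and 23.0 CPM in MEFs (ratio 4.02, 3.68 to 4.40). Among effectors, Heyl had 107 CPM in Pax7-negative iMPCs, 289 CPM in Pax7-positive iMPCs and 0.523 CPM in MEFs, and Hey1 had 41.0, 103 and 1.91 CPM in the same order. Hes1 differed, with 40.8 CPM in Pax7-negative iMPCs and 62.9 CPM in MEFs. In the FGF and IGF group, 5 of 30 were higher and 3 lower. The higher ones were Fgfr4, the transcription factor Etv1 and the IGF-binding proteins Igfbp3, Igfbp4 and Igfbp5, of which Igfbp5 had 1738 CPM in Pax7-negative iMPCs and 50.04 CPM in MEFs. The ligand Igf2 was at 1833 CPM in Pax7-negative iMPCs and 540 CPM in MEFs, 3.39-fold apart (3.33 to 3.45).

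**Figure D3:**
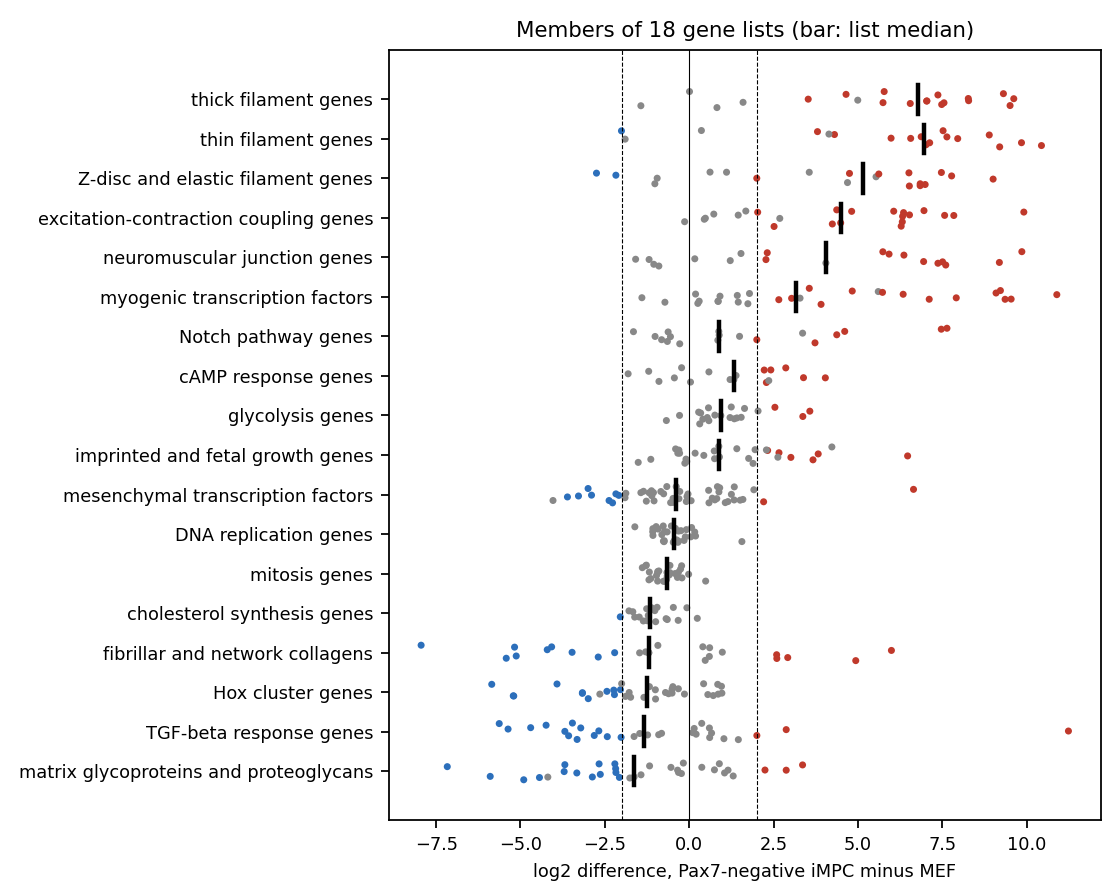
Each point is a measured member of 1 of 18 gene lists, placed by its log2 difference, Pax7-negative iMPC minus MEF. Red and blue points pass the rule of size, grey points do not, the black bar is the list median and dashed lines mark 4-fold. Sarcomere lists have medians of 5.14 to 6.95, cell cycle lists lie just below 0, and the matrix glycoprotein list has the lowest median, -1.63.

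Of 51 measured mesenchymal transcription factors, 8 were lower, 2 higher and 41 neither, with a median log2 difference of -0.38. Over all genes, 2.38% were lower and 4.73% higher. Prrx1, a homeobox factor of limb and connective tissue mesenchyme, was at 254 CPM in Pax7-negative iMPCs and 308 CPM in MEFs, and Twist2 was at 68.6 CPM in Pax7-negative iMPCs, 1.93 CPM in Pax7-positive iMPCs and 18.1 CPM in MEFs. The lower factors included several that pattern the limbs, namely Pitx1, Tbx4, Tbx5, Shox2 and Msx2, of which Pitx1 had 1.45 CPM in Pax7-negative iMPCs and 14.8 CPM in MEFs. Among the higher ones, Hand1, a factor of heart and lateral mesoderm, had 45.2 CPM in Pax7-negative iMPCs, 1.45 CPM in Pax7-positive iMPCs and 0.374 CPM in MEFs. The LIM homeobox gene Lhx9, from the genes with the largest gaps, had 7 counts (0.236 CPM) in Pax7-negative iMPCs and 40.4 CPM in MEFs.

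Hox genes, which record position along the body axis, gave 11 lower and none higher of 34 measured. The lower ones lay mainly at the 5′ ends of the clusters, a grouping made after the values were seen. All 10 measured genes of paralogue groups 10 to 13 were below 0 on the log2 scale and 8 passed the rule, with a median of -3.17 and a summed level of 13.1 CPM in Pax7-negative iMPCs against 155 CPM in MEFs. Of the 24 genes of groups 1 to 9, 3 were lower by the rule, 17 were below 0 and 7 above, with a median of -0.56 and a summed level of 86.4 CPM in Pax7-negative iMPCs against 147 CPM in MEFs. Hoxd13, the most distal gene of its cluster, had 13 counts (0.439 CPM) in Pax7-negative iMPCs and 29.8 CPM in MEFs, 67.8-fold lower (39.4 to 128). Hoxa13 had 0.642 CPM in Pax7-negative iMPCs and 10.8 CPM in MEFs, and Hoxd8 from the middle of the cluster 10.0 CPM in Pax7-negative iMPCs and 6.09 CPM in MEFs. The body site from which the fibroblasts of either library came was not given.

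**Figure D4:**
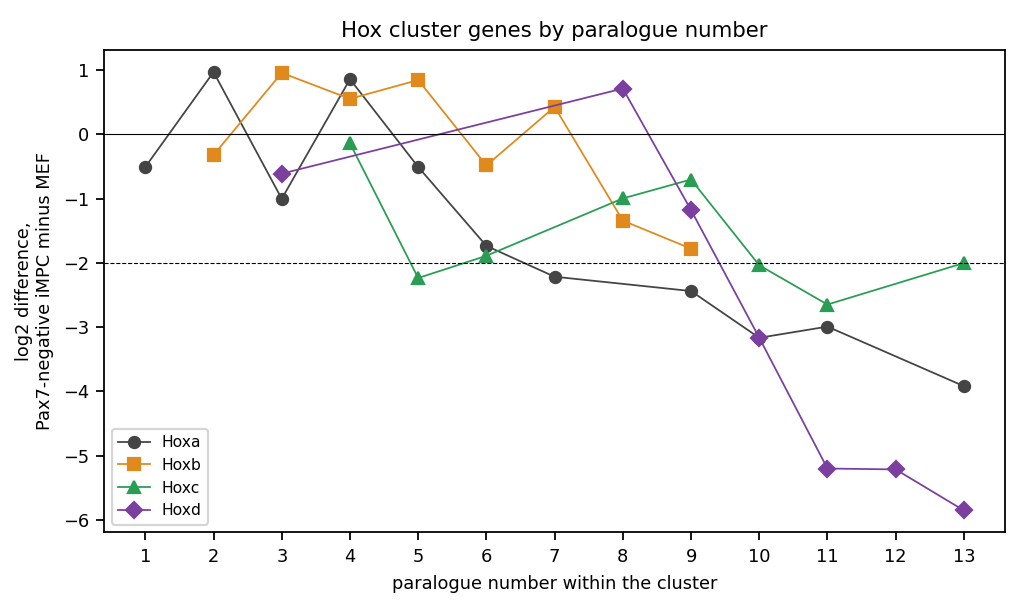
The log2 difference, Pax7-negative iMPC minus MEF, of each measured Hox gene is plotted against its paralogue number, with 1 colour and symbol per cluster and the dashed line at 4-fold lower. Genes of groups 10 to 13 lie at or below -2.0, down to -5.85 at Hoxd13, and genes of groups 1 to 9 between -2.44 and 0.97.

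Genes of cell division were lower by less than the rule requires. None of 28 mitosis genes and none of 32 DNA replication genes was 4-fold apart, with medians of -0.66 and -0.44. The proliferation marker Mki67 had 40.1 CPM in Pax7-negative iMPCs, 94.7 CPM in Pax7-positive iMPCs and 98.1 CPM in MEFs, 2.45-fold lower in Pax7-negative iMPCs than in MEFs (2.28 to 2.62). The mitosis genes together summed to 1823 CPM in Pax7-negative iMPCs, 4103 CPM in Pax7-positive iMPCs and 2876 CPM in MEFs. Rrm2, a subunit of ribonucleotide reductase, had 133 CPM in Pax7-negative iMPCs and 408 CPM in MEFs, whereas cyclin E1 (Ccne1) had 198 and 66.9 CPM in the same order. Among 21 cell cycle inhibitors and relatives, Cdkn1c, Gadd45a and Gas1 were higher and none lower. Cdkn1c, an imprinted inhibitor of cyclin-dependent kinases, had 3735 CPM in Pax7-negative iMPCs, 4143 CPM in Pax7-positive iMPCs and 42.0 CPM in MEFs (ratio 89.0 between Pax7-negative iMPCs and MEFs, 83.9 to 94.5). Cdkn1a, the inhibitor linked to Myod1 and to p53, had 523 CPM in Pax7-negative iMPCs and 441 CPM in MEFs. Further imprinted and fetal genes were higher in 6 of 28 cases and lower in none, with a median of 0.89. Besides Cdkn1c these were Mest, with 1479 CPM in Pax7-negative iMPCs and 183 CPM in MEFs, Nnat, with 304 and 23.8 CPM in the same order, Peg10, Plagl1 and Zim1. H19 and its neighbour Igf2 did not reach 4-fold, and Meg3, Grb10 and Igf2bp1 lay within 2-fold.

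**Figure D5:**
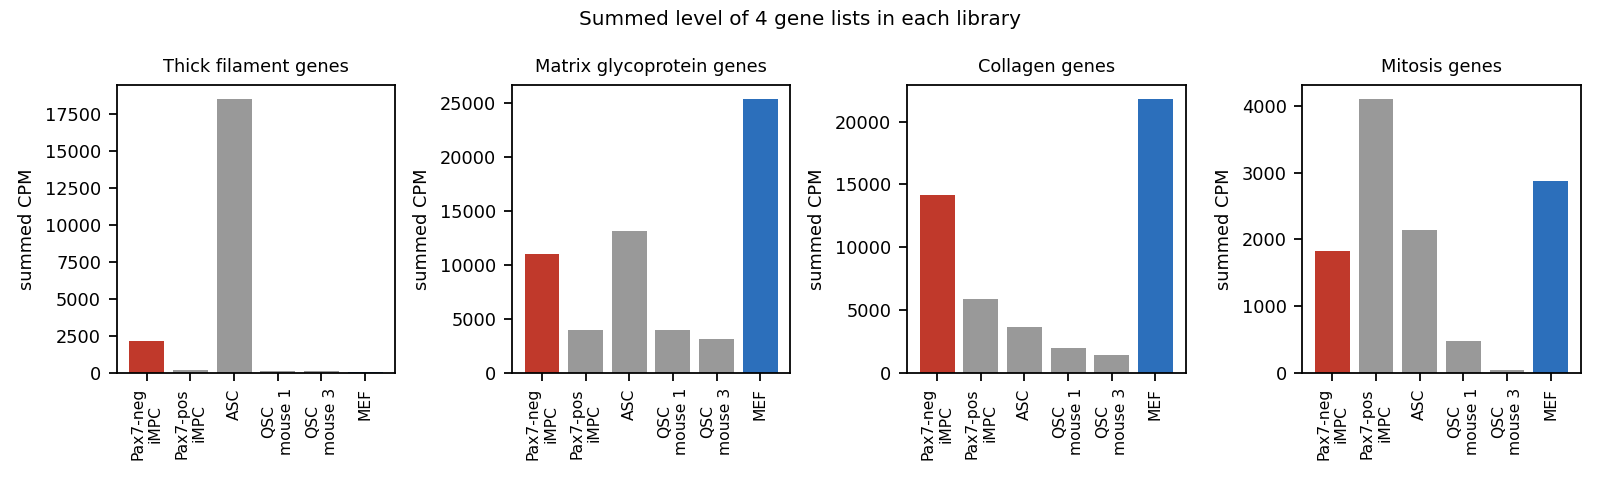
Summed CPM of the genes of 4 lists in each of the 6 libraries, 1 bar per library and no error bars, with Pax7-negative iMPCs in red, MEFs in blue and the other libraries in grey (ASC, activated, and QSC, quiescent satellite cells). Thick filament genes are at 2132 CPM in Pax7-negative iMPCs, between ASC and the remaining libraries, and for matrix glycoproteins and collagens MEFs are the highest library.

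Genes of oxidative phosphorylation and glycolysis mostly did not reach 4-fold, whereas the list of muscle energy genes had a higher median. None of 22 oxidative phosphorylation genes and none of 13 mitochondrially encoded genes reached 4-fold, with medians of 0.59 and 0.11. Of 21 glycolysis genes 3 were higher, and the median was 0.94. They were the glucose transporter Slc2a3 with 115 CPM in Pax7-negative iMPCs and 9.60 CPM in MEFs, the pyruvate dehydrogenase kinase Pdk1 with 135 CPM in Pax7-negative iMPCs and 13 CPM in MEFs, and Ldhb with 449 and 77.1 CPM in the same order. Of 17 measured muscle energy genes, a list not limited to muscle forms of enzymes, 5 were higher by the rule and none lower. Their median log2 difference was 2.22, with 14 above 0 and 3 below. Glycogen phosphorylase (Pygm) was at 73.4 CPM in Pax7-negative iMPCs and 0.486 CPM in MEFs and the phosphoglycerate mutase Pgam2 at 48.9 CPM in Pax7-negative iMPCs and 1.46 CPM in MEFs. Ndufa4l2, a mitochondrial protein induced in hypoxia, was among the genes with the largest gaps, with 203 CPM in Pax7-negative iMPCs and 0.224 CPM in MEFs. Vegfa, another gene induced in hypoxia, was at 234 CPM in Pax7-negative iMPCs and 68.3 CPM in MEFs, 3.43-fold apart (3.26 to 3.62).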

How the data were processed

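RNA was selected on poly(A) tails and sequenced with a directional kit, per the labels' protocols. For every library the authors deposited unnormalized read counts by Ensembl gene, and for the series a table of RPKM values with symbols. The submitters' processing notes name the mm9 build and the tools STAR 2.3.0, Picard 1.100, HTSeq 0.6.0 and edgeR. Roles, annotation and strand setting were not given in these sources, so overlapping, antisense and near-identical genes are uncertain. The deposited RPKM values equal counts per library total and kilobase (largest relative deviation of the implied length 5.44e-15).

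Counts were filtered by group and TMM-scaled over all 6 libraries in R 4.3.3 with edgeR 4.0.16 (17116 genes kept), and expressed as log2 CPM (prior count 2). The procedure was checked on simulated counts. Folds are ratios of scaled CPM with an exact conditional 95% interval, and against 0 counts they are bounds at 3 counts in that library. Of 1084 entries in 49 gene lists, 1082 matched a gene, and members count as measured from 1 CPM in either library. The members and lists were chosen with earlier results of these data known. Named genes are identity genes, the 12 largest differences each way, the 8 highest CPM each way, up to 4 members per list and genes next to the thresholds. Further genes, and the promoter windows, were chosen after their values were seen. Alternatives covered scaling, filter, thresholds, prior count and depth. A few genes are not reported here. No mm9 coordinates are given.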

Additional observations from a re-analysis of the deposited data

How the results depend on the processing

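The counts of higher and lower genes depended on the thresholds. With a minimum of 1 CPM in place of 5, 1290 genes were higher in Pax7-negative iMPCs and 625 lower, and with 20 CPM 443 and 240. With a 2-fold rule the counts were 1460 and 1261, and with an 8-fold rule 533 and 162. Under the alternatives of scaling, expression filter, prior count and thinning both libraries to the same depth, they ranged over 783 to 899 higher and 397 to 435 lower genes, and 65.2% to 68.9% of the genes called were higher ones. Library size scaling without TMM shifted the median of all genes to 0.081 on the log2 scale, and under it 195 of 200 called genes named by the rule or chosen later were still called, without Pdgfc, Postn, Sc5d, Tgfb3 and Tpm3. Median-of-ratios scaling kept 197 of the 200, without Cacna2d3, Notch3 and Rtp4. A prior count of 5 kept 198, without Notch3 and Pdgfc, and thinning to the same depth kept 197. No list median and no called gene among those named changed sign under these alternatives. No paired analysis was possible because each group has 1 library. Depth limits genes under about 3 counts, which is 0.101 CPM in Pax7-negative iMPCs and 0.112 CPM in MEFs, and with 1 library per group the spread between replicates was not measured.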

Other observations

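Secreted signals of inflammation and growth were divided between the libraries. Of 33 chemokine and cytokine genes, 9 were higher in Pax7-negative iMPCs and 6 lower. The alarmin Il33 had 544 CPM in Pax7-negative iMPCs, 33.5 CPM in Pax7-positive iMPCs and 6.20 CPM in MEFs. The eosinophil attractant Ccl11 had 64.8 CPM in Pax7-negative iMPCs, 6.02 CPM in Pax7-positive iMPCs and 0.336 CPM in MEFs. On the other side, the chemokine Cxcl12 had 28.6 CPM in Pax7-negative iMPCs and 509 CPM in MEFs, and the macrophage growth factor Csf1 had 84.0 CPM in Pax7-negative iMPCs and 660 CPM in MEFs. The Il33 receptor gene Il1rl1 was lower, with 138 CPM in Pax7-negative iMPCs and 648 CPM in MEFs. Tnfrsf9, a co-stimulatory receptor known from T cells, had 2968 counts (100 CPM) in Pax7-negative iMPCs, 5.31 CPM in Pax7-positive iMPCs and 0 counts in MEFs, at least 894-fold higher than 3 counts, while the T cell gene Cd3e did not pass the filter on low counts. Of 17 MHC and complement genes 5 were higher and none lower. The median log2 difference was 1.40, with 13 above 0 and 4 below. The inhibitor Serping1 had 181 CPM in Pax7-negative iMPCs and 9.27 CPM in MEFs, and the component C3 20.4 and 0.897 CPM in the same order. The class II gene H2-Ab1 was also higher, with 12.1 CPM in Pax7-negative iMPCs and 0.224 CPM in MEFs. The class I genes H2-K1 and H2-D1 had 36.3 and 46.5 CPM in Pax7-negative iMPCs, against 12.5 and 44.5 CPM in MEFs. B2m, the light chain of class I molecules, was the lowest member, with 147 CPM in Pax7-negative iMPCs and 352 CPM in MEFs. Of 25 interferon response genes 4 were higher (Usp18, Oasl2, Psmb8 and Rtp4), whereas Ifit2 lay within 2-fold.

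Genes that take up, bind, make, break down or respond to retinoids were higher in 7 of 16 cases and lower in 1, with a median log2 difference of 2.06. The binding protein Crabp1 had 653 CPM in Pax7-negative iMPCs, 13.8 CPM in Pax7-positive iMPCs and 70.1 CPM in MEFs, and the receptor Rarb had 48.0, 8.98 and 2.88 CPM in the same order. The enzymes that make retinoic acid were exchanged, with Aldh1a2 at 75.6 CPM in Pax7-negative iMPCs and 5.08 CPM in MEFs and Aldh1a1 at 7 counts (0.236 CPM) in Pax7-negative iMPCs and 28.1 CPM in MEFs. Genes of cholesterol and fatty acid synthesis had a median of -1.17, with 1 of 20 at least 4-fold lower. Hmgcs1, the synthase at the entry of the pathway, had 127 CPM in Pax7-negative iMPCs and 293 CPM in MEFs, and its regulator Srebf2 had 219 and 186 CPM in the same order. Lipoprotein lipase (Lpl) had 443 CPM in Pax7-negative iMPCs, 418 CPM in Pax7-positive iMPCs and 11.5 CPM in MEFs, while the adipocyte gene Fabp4 had 12 CPM in Pax7-negative iMPCs and 6.17 CPM in MEFs. The ATP-sensitive potassium channel subunits Kcnj8 and Abcc9, used as pericyte markers, had 100 and 73.1 CPM in Pax7-negative iMPCs, against 1.08 and 1.16 CPM in MEFs, whereas Cspg4, another pericyte marker, had 33 counts (1.11 CPM) in Pax7-negative iMPCs and 160 CPM in MEFs. Among processed pseudogenes, 35 of 782 (4.48%) were higher and 3 (0.384%) lower, beside 4.73% and 2.38% over all genes. The share of higher ones was thus near that of all genes. Reads of a parent gene may be counted at such copies.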
